A study of Mus musculus with 4 samples.

Results

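Fibroblast growth factor (FGF) signalling was followed here through 10 genes, namely the ligands Fgf4, Fgf15 and Fgf17, the receptors Fgfr1, Fgfr2, Fgfr3 and Fgfr4, and the intracellular adaptors Frs2, Grb2 and Ptpn11, out of 46078 mouse genes with a row in both count tables. These members were taken by symbol and matched to their Ensembl identifiers. The rule uses no measured value, but the set was drawn up with earlier results of these data known. Wild-type E14 mouse embryonic stem (ES) cells had been grown in 2i medium, which holds an inhibitor of MEK and an inhibitor of GSK-3 and, by the study's methods, leukaemia inhibitory factor. Cells in a gate for low forward and side scatter (small cells, which the submitters describe as leaving mitosis or in G1) and ungated cells were then plated on laminin, either in 2i (labelled Naïve) or in the basal medium N2B27 without inhibitors (labelled Exit), for 6 h before single cells were collected. Full-length single-cell RNA sequencing (Smart-seq2) covered 24 cells in each of the 4 groups, which are small and ungated cells in 2i (2i small, 2i ungated) and small and ungated cells in N2B27 (N2B27 small, N2B27 ungated). Where 4 values are listed, they follow that order unless another is named, and all groups share the genotype, the line and the growth in 2i before sorting.

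An FGF ligand binds its receptor together with heparan sulphate, and the receptor then phosphorylates the docking protein FRS2. FRS2 recruits GRB2, which brings the RAS activator SOS to the membrane, and SHP2, the phosphatase encoded by Ptpn11, and RAS switches on the kinases RAF, MEK and ERK. In mouse ES cells Fgf4 is known as the main self-made ligand of this route, and ERK activity started by it is needed for cells to leave the naive state. The MEK inhibitor in 2i acts below all 10 proteins, so ligand, receptor and adaptor transcripts can be measured in cells where the route is open at its lower end (N2B27) or closed (2i).

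Each group is 1 sample of cells, so differences between groups have no replicate check, no p-value is given, and cells are not replicates. Of the 96 cells, 75 passed the filter on counts, genes and mitochondrial share, and only 12 of 24 did in 2i small, against 22 in 2i ungated, 20 in N2B27 small and 21 in N2B27 ungated. Kept cells held between 1364155 and 4844170 gene counts (median 2658109), and the median share of spike-in RNA was 3.47% and 2.45% in the small cells of 2i and N2B27, against 1.28% and 1.14% in the ungated cells. The transcriptome classifier placed 6 of 12 2i small and 6 of 20 N2B27 small cells in G1, but 0 of 22 and 2 of 21 ungated cells, of which 15 and 15 were in G2/M. The 2i cells and the N2B27 cells were separate plates and sequencing lanes and used the same 24 index pairs per gate, so effects of medium and of plate or lane cannot be told apart, nor can those of gate and of the rows of the index plate. Of 10 ES cell markers, 9 were counted in 50% or more of each group's cells. Of 6 trophectoderm markers 4 to 5 had a count in each group, with median summed levels of 46.1, 204, 137 and 299 normalized counts, ranges that began at 0 and reached 744, 549, 1167 and 1540, and Elf5 at 0 in all cells. Of 8 primitive endoderm markers 2 to 5 had a count, with a median sum of 0 in each group, highest cells of 2.69, 161, 201 and 533, and Pdgfra at 0 in all cells, while of 6 fibroblast markers at most 1 had a count.

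Fgf4 and the adaptor Grb2 were the members with the highest level per length of transcript, and Fgf15 had no count in any cell. On the scale of mean normalized counts per kilobase of exon, averaged over the 4 groups, the order was Fgf4 (48.4), Grb2 (27.6), Fgfr1 (11.7), Fgf17 (8.81), Ptpn11 (6.73), Fgfr2 (2.33), Frs2 (2.24), Fgfr4 (0.946), Fgfr3 (0.0927) and Fgf15 (0). Neighbours in this order overlapped in the range of their 4 group values throughout, from Fgf4 (29.5 to 76.7) and Grb2 (6.55 to 43.5) to Fgfr4 (0 to 3.35) and Fgfr3 (0 to 0.358). Wider steps overlapped too where Fgf17 was involved (1.18 to 15.8), and so did Ptpn11 (3.05 to 12.8) and Frs2 (1.08 to 3.35). The lowest group value of Fgf4 lay above the highest of Fgfr1 (15.7), and the lowest of Fgfr1 (9.27) lay above the highest of Fgfr2 (5.09). Exon lengths came from the GENCODE annotation of the GRCm38 build, and 5 of the 10 members (Fgf4, Fgfr1, Fgfr2, Grb2 and Ptpn11) reached the mean of 20 normalized counts used to define the background of all genes.

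**Figure D1:**
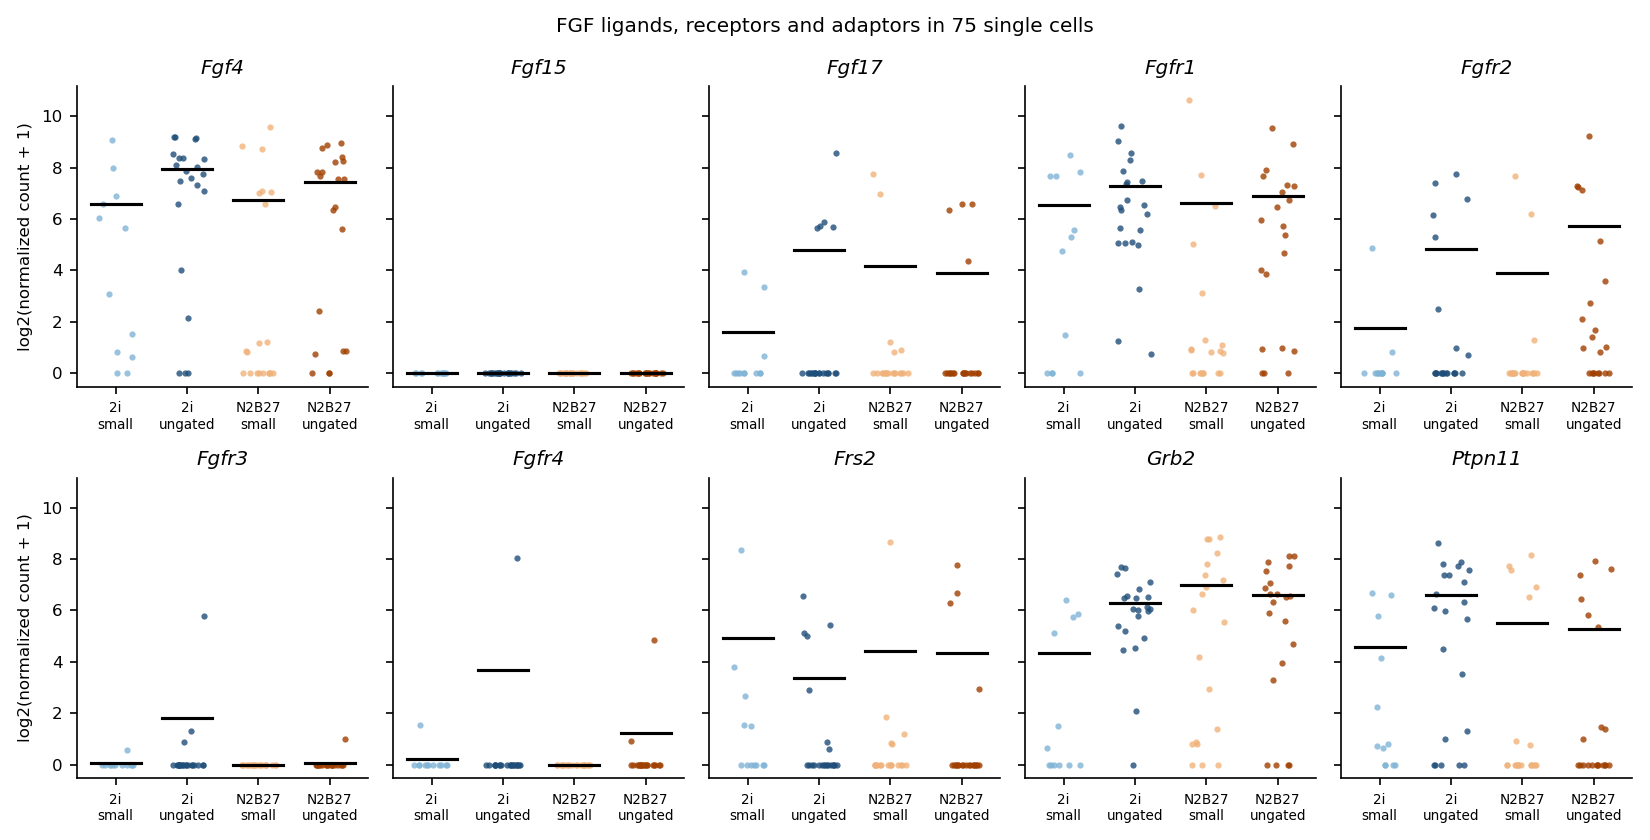
Each point is 1 of the 75 kept cells, the vertical axis is log2(normalized count + 1), and the black bar marks the group mean of normalized counts on the same axis. Fgf4, Fgfr1, Grb2 and Ptpn11 show a cloud of high cells above cells at or near 0 in the groups, Fgf15 lies at 0 everywhere, and Fgfr3 and Fgfr4 rest on single cells.

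Fgf4 lies on chromosome 7 (144847367 to 144865243, plus strand, GRCm38) and was the most abundant ligand in all 4 groups. In 2i ungated cells its normalized count ranged from 0 to 589 with a median of 222, and 19 of 22 cells had a count. In N2B27 ungated cells it ranged from 0 to 501 with a median of 189, and 18 of 21 cells had a count. The small cells ranged as high but centred far lower, from 0 to 539 with a median of 28.6 in 2i (10 of 12 cells with a count) and from 0 to 759 with a median of 0.782 in N2B27 (11 of 20 cells). All 4 groups overlapped from 0 upward, and the groups differed in how many cells held a substantial amount. At least 10 counts were present in 6 of 12, 18 of 22, 7 of 20 and 14 of 21 cells of the groups, that is in 50% and 35% of the small cells and 81.8% and 66.7% of the ungated ones. The mean was 94.3 ± 159 (SD over 12 cells) in 2i small, 245 ± 196 (22 cells) in 2i ungated, 107 ± 205 (20 cells) in N2B27 small and 172 ± 169 (21 cells) in N2B27 ungated.

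The sequence upstream of a RefSeq start of the highest member, Fgf4, is shown beside those of a weakly counted receptor, Fgfr4, and of the adaptor Grb2. Transcript starts of genes at both ends of the order can so be compared. The 250 bases before each RefSeq transcript start (GRCm38.p6) are written 5′ to 3′ on the strand of the gene, at chr7:144861136-144861385 (plus strand) for Fgf4, chr13:55152568-55152817 (plus strand) for Fgfr4 and chr11:115699929-115700178 (minus strand) for Grb2. Capitals mark the GC box GGGCGG, the CCAAT box CCAAT and the TATA box TATAAA, each on either strand.
Fgf4: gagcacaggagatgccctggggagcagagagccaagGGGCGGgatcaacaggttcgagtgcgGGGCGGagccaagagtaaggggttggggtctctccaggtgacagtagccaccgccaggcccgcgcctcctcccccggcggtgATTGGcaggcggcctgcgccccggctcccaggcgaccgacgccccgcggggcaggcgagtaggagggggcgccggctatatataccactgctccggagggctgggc
Fgfr4: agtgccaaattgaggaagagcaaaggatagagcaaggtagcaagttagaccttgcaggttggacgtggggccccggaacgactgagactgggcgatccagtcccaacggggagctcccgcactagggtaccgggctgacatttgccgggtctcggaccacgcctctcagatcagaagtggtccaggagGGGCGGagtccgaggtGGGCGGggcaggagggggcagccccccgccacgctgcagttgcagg
Grb2: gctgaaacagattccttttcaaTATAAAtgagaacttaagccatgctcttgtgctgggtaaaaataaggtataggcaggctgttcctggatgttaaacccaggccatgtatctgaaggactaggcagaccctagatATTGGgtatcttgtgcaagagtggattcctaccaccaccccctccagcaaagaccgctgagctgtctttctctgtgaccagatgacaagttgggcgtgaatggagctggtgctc
The Fgf4 window held 2 GC boxes, 1 CCAAT box and 21 CpG dinucleotides, more CpG than 83.7% of all 32851 promoter windows. The Fgfr4 window also held 2 GC boxes, but no CCAAT box, with 15 CpG (more than 72.7% of windows), whereas this Grb2 window held no GC box, 1 CCAAT box, 1 TATA box and 2 CpG. Among all windows of the same length, 32.7% held a GC box, 33.8% a CCAAT box and 12.4% a TATA box. The windows of the abundant ligand and of the nearly silent receptor thus held the same number of GC boxes and differed by the CCAAT box, and a match is a description of the letters and not of a bound site. The table held windows for 7 of the 10 members, and Grb2 and Fgfr3 each had a second one. Each Grb2 window lies inside the annotated gene model, whose 5′ end on the minus strand is at 115708597. The Grb2 letters therefore describe an internal RefSeq start and not the sequence before that end.

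Fgf4 shares its stretch of chromosome 7 with further FGF genes, and only Fgf4 among them was counted in most cells. Fgf3, which ends 2.93 kb before the Fgf4 gene model starts, had a count in 2 of 75 cells. Fgf15, the mouse counterpart of the gut hormone FGF19, starts 49.2 kb after the start of Fgf4 (144896531 to 144900953, plus strand) and had a count in 0 of 75 cells, which allows a share of up to 4%. Beyond Fgf15, LTO1 had a count in 43 cells and Ccnd1, which encodes the G1 cyclin D1, in 61 cells, while Ano1 on the far side of Fgf3 had one in 1 cell. The gene model of Fgf15 overlaps a pair of antisense genes, and 24.9% of its exon bases are shared with the one that has a row in the count tables, which was also at 0 counts. The annotation's Fgf4 model begins upstream of the RefSeq start used for the window above.

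**Figure D2:**
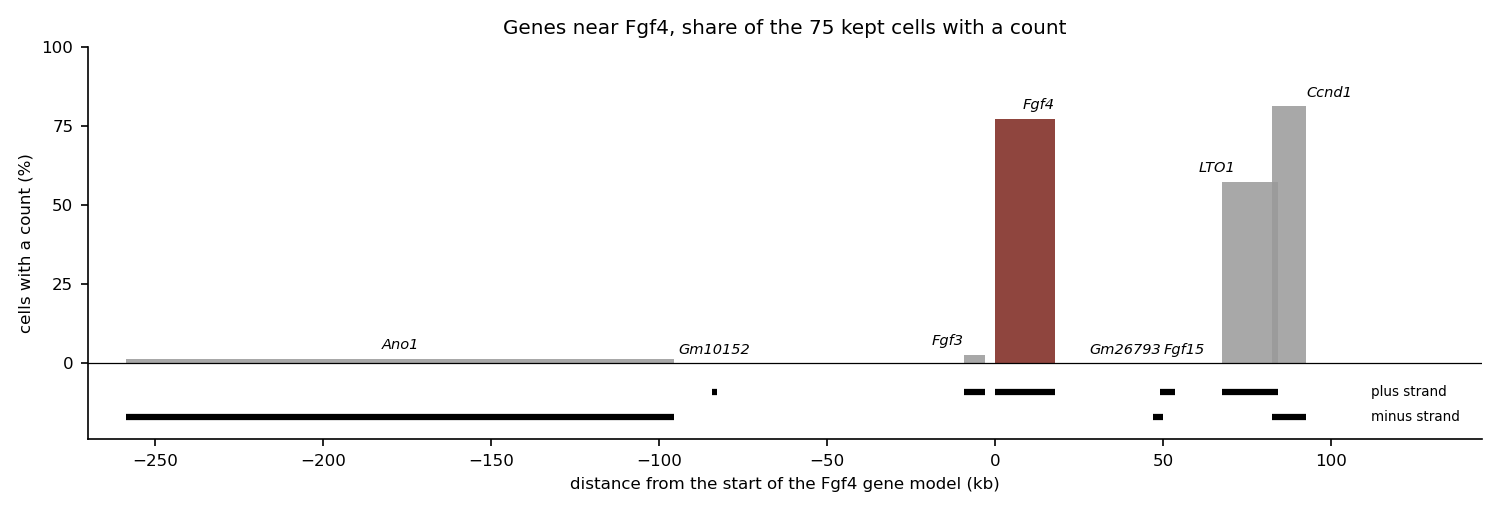
Genes within 200 kb of Fgf4 that have a row in the count tables, with the distance from the start of the Fgf4 gene model in kb on the horizontal axis and the share of the 75 kept cells with a count on the vertical axis; the black lines under the axis are the gene bodies by strand. Fgf4 stands at 77.3%, between Fgf3 and Fgf15 at or near 0.

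Fgf17, a ligand of the Fgf8 subfamily known from patterning of the midbrain and cerebellum, was counted in few cells of every group (chromosome 14, 70636203 to 70642268, minus strand). A count was present in 3 of 12 2i small, 5 of 22 2i ungated, 5 of 20 N2B27 small and 4 of 21 N2B27 ungated cells. The median was 0 in each group, and the highest cell reached 14.2, 375, 214 and 93.9 normalized counts in the same order. Fgf17 was thus a gene of occasional high cells, and a single cell held between 35% and 64.9% of its counts in each group. Shares with a count differed by less than their 95% exact binomial intervals (5.49% to 57.2% in 2i small, 7.82% to 45.4% in 2i ungated). Counts here are reads without molecular identifiers, so intervals of counts and ratios cover the counting error of reads only. Intervals of shares cover the draw of cells within 1 sample only.

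Of the other 19 mouse FGF family genes on the list, 11 had a count in any kept cell and 8 had none. Of the 19, 0 reached the mean of 20 normalized counts. Fgf13, an intracellular member of the family that is not secreted, was the most often counted of them (13 of 75 cells), followed by Fgf9 and Fgf11 (8 cells each) and by Fgf5, a marker of the epiblast after the naive state (5 cells). Fgf8 had a count in 1 cell and Fgf2 in 1 cell. The ligand side in these cells was therefore Fgf4 in most cells, with Fgf17 in a minority. Fgf13 is not part of that side, as it is not secreted.

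Fgfr1 was the receptor with the highest level in every group (chromosome 8, 25513654 to 25575718, plus strand). All 22 2i ungated cells had a count, with normalized counts from 0.663 to 776 and a median of 84.1, and 18 of 21 N2B27 ungated cells did, with values from 0 to 740 and a median of 51.3. In 2i small cells the range was 0 to 354 with a median of 31.9 and a count in 8 of 12 cells. In N2B27 small cells 12 of 20 had a count, but the median was 0.795 and 1 cell at 1600 normalized counts held 75.8% of all counts of the group. Most N2B27 small cells thus held at most a few reads, and a share of at least 10 counts was found in 4 of 20 of them (20%), against 7 of 12, 19 of 22 and 15 of 21 cells in 2i small, 2i ungated and N2B27 ungated. The mean of N2B27 small cells, 97.2, became 18.1 without that cell, while the other groups had means of 91.5 (2i small), 155 (2i ungated) and 119 (N2B27 ungated). An antisense gene overlaps 1.66% of the exon bases of Fgfr1 and had 23 counts in all kept cells.

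Fgfr2, the second receptor of the early embryo and the one that marks the primitive endoderm lineage, was counted in 26 of all 75 cells and more often in ungated ones. A count was found in 2 of 12 2i small, 8 of 22 2i ungated, 3 of 20 N2B27 small and 13 of 21 N2B27 ungated cells. The highest cells stood at 28, 214, 204 and 598 normalized counts, and the medians were 0, 0, 0 and 1.03. N2B27 ungated cells were thus the group with Fgfr2 in the most cells, although only 6 of the 13 held at least 10 counts, and the mean of the group, 52.6, became 25.3 without the cell at 598. By row of the index plate, 10 of 11 of these cells in one row (mean 82.8) and 3 of 10 in the other (mean 19.4) had a count, and the part of the row was not tested. The highest summed level of primitive endoderm markers given above (533) was also in this group, and its part was not tested. The annotation draws Fgfr2 on chromosome 7 over 2.96 Mb (130162451 to 133123350, minus strand), across 69 other genes, and 314 of its exon bases are shared with Ctbp2, which had 19633 counts. Its level per length rests on this gene model.

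Fgfr3 and Fgfr4 were almost absent. Fgfr3, best known as a brake on bone growth (chromosome 5, 33721674 to 33737068, plus strand), had 1, 50, 0 and 1 counts in small and ungated 2i and small and ungated N2B27 cells, and 94% of the 50 came from 1 cell. A gene on the other strand shares 13.9% of the Fgfr3 exon bases and had 0 counts. Fgfr4, the receptor through which FGF19 and Fgf15 act on the liver (chromosome 13, 55152640 to 55168759, plus strand), had 5, 379, 0 and 30 counts, with all of the 379 in 1 cell. Ratios between groups for both genes are ratios between single cells. With 0 of 20 N2B27 small cells, shares up to 16.8% for either receptor lie within the exact 95% interval.

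Most cells with Fgfr2 also had Fgfr1, as did most cells in general. Of the 26 cells with a count of Fgfr2, 24 had one of Fgfr1, beside 60 of all 75 cells (80%), and the other 2 were N2B27 ungated. At 10 or more counts, a threshold chosen after seeing the data, 10 of 14 Fgfr2 cells held Fgfr1 too, beside 45 of all 75. No receptor of any kind was counted in 4 of 12 2i small and 8 of 20 N2B27 small cells, against 0 of 22 2i ungated and 1 of 21 N2B27 ungated cells. Lack of a counted receptor was therefore mostly a state of small cells in these libraries, with shares of 33.3% (95% exact binomial interval 9.92% to 65.1%) and 40% (19.1% to 63.9%) against 0% (0% to 15.4%) and 4.76% (0.12% to 23.8%). When at least 10 counts were required, the cells without a receptor were 5 of 12, 15 of 20, 2 of 22 and 4 of 21 in the same order. Small cells also had the larger share of spike-in RNA given above, and its part in this difference was not tested.

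Ligand and receptor were found in the same cell in most ungated cells and in fewer small cells. Fgf4 and any receptor were both counted in 19 of 22 2i ungated and 17 of 21 N2B27 ungated cells, and in 6 of 12 2i small and 5 of 20 N2B27 small cells. Fgf4 without a receptor was seen in 4 of 12 and 6 of 20 small cells and in 0 of 22 and 1 of 21 ungated cells. At 10 or more counts of each gene, Fgf4 and Fgfr1 shared 4 of 12, 16 of 22, 0 of 20 and 10 of 21 cells of the groups in their usual order. Of the 20 N2B27 small cells, only 7 held Fgf4 and 4 held Fgfr1 at that threshold. A ligand, a receptor and an adaptor together were counted in 49 of 75 cells (65.3%), with 7 of 20 N2B27 small cells as the lowest and 19 of 22 2i ungated cells as the highest group share. Members per cell had a median of 3, 5, 3 and 4 out of 10. Genes of any kind with a count had a median of 7603, 9515.5, 7462.5 and 8200 per cell, so small cells had fewer counted genes in general. The part of this and of the single-gene shares given above in the joint counts was not tested.

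**Figure D3:**
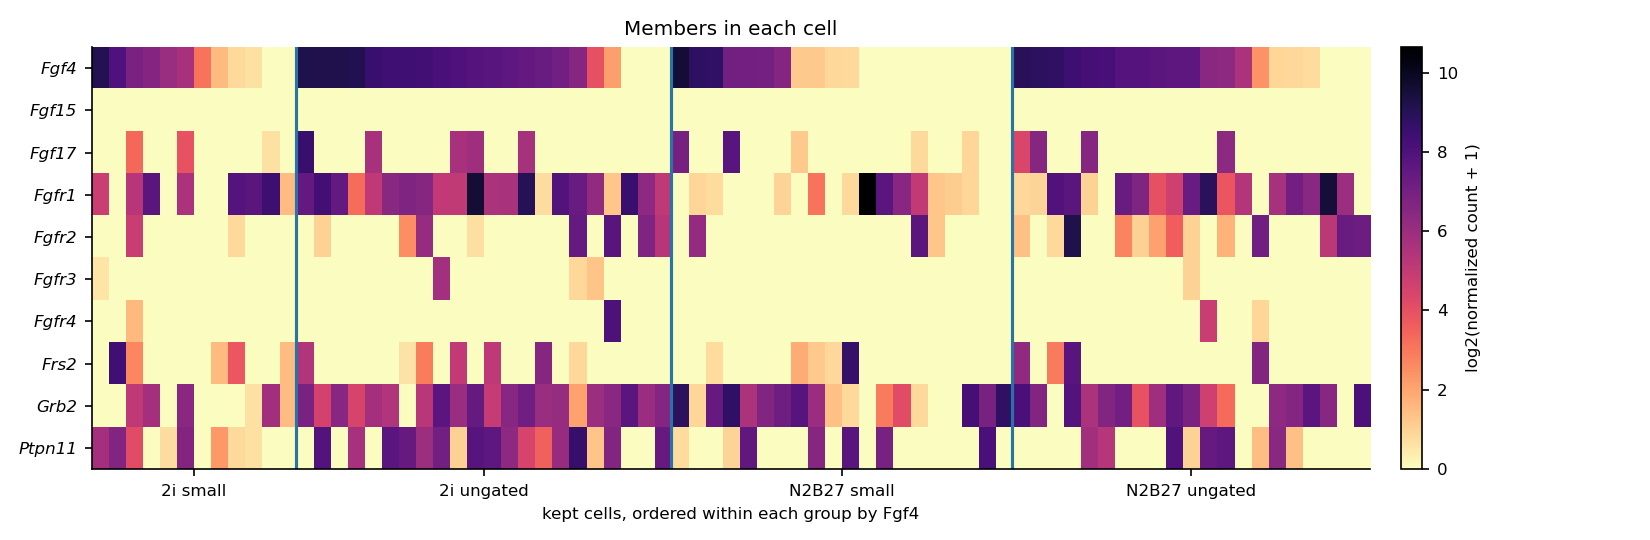
Columns are the 75 kept cells, split by group and ordered within a group by falling Fgf4, rows are the 10 members, and colour is log2(normalized count + 1). In N2B27 small cells the high Fgf4 cells at the left and the few high Fgfr1 cells lie in separate columns. At least 10 counts were present in only 7 and 4 of these 20 cells. In the ungated groups both rows are filled in most columns, and each gene alone was counted in most cells. Whether the overlaps depart from these single-gene shares was not tested.

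Among the adaptors Grb2 was the most widely counted. GRB2 is the SH2 and SH3 domain protein that links phosphorylated FRS2 to SOS, and its gene lies on chromosome 11 (115644045 to 115708597, minus strand). In 2i ungated cells 21 of 22 had a count, with values from 0 to 206 and a median of 65.4. N2B27 small cells ranged from 0 to 469 with a median of 55 (17 of 20 with a count), and N2B27 ungated cells from 0 to 276 with a median of 91.2 (17 of 21). Among kept cells, 2i small stood apart with a range of 0 to 83.9, a median of 0.274 and a count in 6 of 12. Its highest kept cell lay below the mean of N2B27 small cells. Group means were 19.1 ± 29.8 (12 cells), 78.3 ± 57.9 (22 cells), 127 ± 163 (20 cells) and 97.5 ± 91.4 (21 cells) in the usual order. Only 12 of 24 2i small cells were kept. With no cell filter the log2 ratio of means of 2i small against 2i ungated turned from −1.98 to 4.82. A count was then present in 12 of 24 2i small and 22 of 24 2i ungated cells. Within the small cells Grb2 went with the cell cycle class. It was counted in 1 of 6 and 3 of 6 G1 cells of 2i and N2B27 and in 4 of 5 and 11 of 11 S phase cells. The 2 G1 cells among the N2B27 ungated cells went the other way, with 236 and 274 normalized counts. The small G1 cells also had the larger spike-in share (median 10.5% and 4.93%, against 2.32% and 2.36% in S phase), and its part was not tested. Another gene lies inside Grb2 but shares none of its exon bases.

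Ptpn11, which encodes the phosphatase SHP2 (chromosome 5, 121130533 to 121191397, minus strand), was higher in 2i ungated cells than in the other 3 groups. A count was found in 17 of 22 2i ungated cells, with a median of 64.1 and a highest cell of 394 normalized counts. The other groups had a count in 8 of 12 2i small, 7 of 20 N2B27 small and 9 of 21 N2B27 ungated cells, with medians of 0.712, 0 and 0 and highest cells of 100, 289 and 240. The groups overlapped over most of their range, while means were 22.8, 96.2, 45.2 and 37.6. Among N2B27 small cells, 6 of 11 in one row of the index plate and 1 of 9 in the other had a count, and the part of the row was not tested.

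Frs2 was the sparsest adaptor (chromosome 10, 117069427 to 117148534, minus strand), although its product is the docking site on which the others assemble. A count was present in 5 of 12, 7 of 22, 5 of 20 and 4 of 21 cells of the groups, and the median was 0 in all groups. Single cells carried the means: 1 cell held 94.9% of the counts in 2i small, 59.3% in 2i ungated, 99.1% in N2B27 small and 49.2% in N2B27 ungated. Means of 29.3, 9.46, 20.3 and 19.1 became 2, 5.49, 0.284 and 9.3 without the highest cell of each group, which turns the order of small and ungated cells round in both media. All 3 adaptors were counted together in 8 of 75 cells, and none of them in 6.

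**Figure D4:**
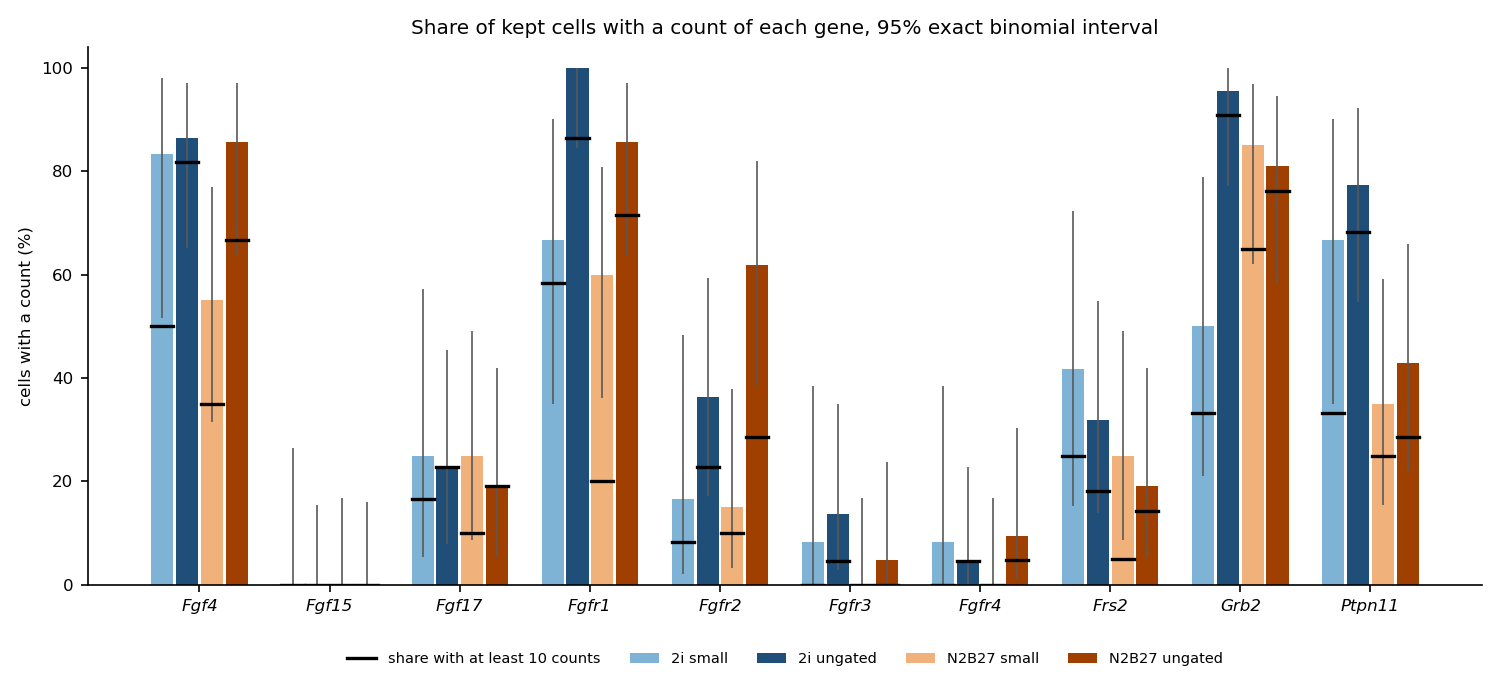
Bars give the share of kept cells with at least 1 count of each gene in each group, grey lines the 95% exact binomial interval, and black ticks the share with at least 10 counts. Grb2 in 2i small (50%) and Fgfr1 in N2B27 small (60%, or 20% at 10 counts) lie below the ungated cells of the same medium.

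Small and ungated cells were compared within each medium to ask whether cells early in the cycle carry other amounts of the FGF machinery. In 2i most members had a lower mean in small cells. On the scale of log2 ratios of group means (pseudocount 1), 7 of the 10 lay at −1 or below: Fgfr4 (−3.47), Fgf17 (−3.20), Fgfr2 (−3.07), Ptpn11 (−2.03), Grb2 (−1.98), Fgfr3 (−1.78) and Fgf4 (−1.37). Over the 8730 genes that reached the mean of 20, 27.8% lay at −1 or below and 16.3% at 1 or above, and their median was −0.36 against −1.88 for the 10 members. Of the 5 members that reached that mean, 4 lay at −1 or below and 0 at 1 or above. Fgf17, Fgfr3 and Fgfr4 lie under it, and without the highest 2i ungated cell of each gene they stood at −1.88, −0.094 and 0.21. Fgfr1 had a ratio of −0.75, and Frs2 was the only member at 1 or above, with 1.53 resting on 1 cell. Among S phase cells only, the member median was −0.70 against −0.32 for all genes, and 4 members lay at −1 or below. With spike-in size factors it was −0.24 against 0.79 for all genes, with 2 members at −1 or below, so the size of the difference depends on the scale. The median spike-in share was higher in 2i small cells, as given above, yet that scale raised the median of all genes from −0.36 to 0.79. Whether a few cells gave this rise was not tested. On the mean of log2 values per cell the member median was −1.0 and that of all genes −1.36. At −1 or below lay 5 members and 60% of all genes. The median of all 10 members thus no longer lay under the rest, but it includes Fgf15 at 0 and members under the mean of 20. Among the 5 that reached this mean, Grb2 (−3.60), Ptpn11 (−2.36), Fgfr1 (−2.06) and Fgf4 lay under −1.36, and Fgfr2 did not. The median of these 5 therefore still lay under that of all genes. With no filter on cells the ratios of Grb2 and Ptpn11 turned to 4.82 and 6.37, and the member median was −0.78. The shares of cells did not turn: Grb2 was then counted in 12 of 24 2i small and 22 of 24 2i ungated cells. Ptpn11 was counted in 10 of 24 and 18 of 24.

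The same comparison in N2B27 gave no common shift. The member median was −0.03 against −0.12 for all genes, 2 of 10 members lay at −1 or below (17.1% of all genes did), and 0 lay at 1 or above (11.8% of all genes). Of the 5 that reached the mean of 20, 1 and 0 did. Fgfr2 had a lower mean in small cells (−1.85, with pooled counts of 360 against 1257 and a counting interval of −1.95 to −1.61 for the ratio without a pseudocount). Its ratio was −0.55 among S phase cells only, −0.82 without the highest ungated cell and −3.46 without the highest small one, so its place past −1 rests on single cells and on the cell cycle classes included. Fgfr4 had 0 counts in small and 30 in ungated cells, at least 9.83-fold lower with the floor of 3 counts over the group, of which 96.7% came from 1 ungated cell. Fgf4 (−0.68), Fgfr1 (−0.30), Ptpn11 (0.26), Grb2 (0.38), Fgf17 (0.29) and Frs2 (0.08) were within 1 on either side. On the mean of log2 values per cell, which weighs each cell equally, Fgf4 and Fgfr1 differed more. Their differences of small minus ungated cells were −2.45 and −2.84, where all genes had a median of −0.76. On that scale 3 of 10 members and 42.4% of all genes lay at −1 or below. The median of all 10 members, −0.37, lay above that of all genes, but it includes Fgf15 at 0 and members under the mean of 20. Among the 5 that reached this mean, Fgf4, Fgfr1 and Fgfr2 lay under −0.76. Grb2 (−0.55) and Ptpn11 (−0.18) lay above it.

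Cells in N2B27 were compared with cells in 2i to ask how the FGF route itself changed 6 h after the inhibitors were withdrawn. In small cells 3 of 10 members lay at 1 or above (22.3% of all genes) and 0 at −1 or below (19.2%), with a member median of 0.13 against 0.09. Of the 5 members with a mean of 20, 2 and 0 did, and the median of these 5 was 0.95. The 3 were Grb2 (2.67), Fgf17 (2.59) and Fgfr2 (2.13), while Ptpn11 stood at 0.95, Fgf4 at 0.18, Fgfr1 at 0.09 and Frs2 at −0.51. Grb2 had the broadest base of these, with pooled counts of 2998 against 342, a highest cell with 22.2% of the counts and a ratio of 2.03 or more under every other alternative tried except those with no cell filter (−4.29) and with spike-in size factors (−0.15, all genes −1.57). Fgf17 and Fgfr2 rested on 2 N2B27 small cells each with at least 10 counts, and without the highest of these the ratios were 1.37 and 0.52.

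In ungated cells 0 of 10 members lay at 1 or above (7.49% of all genes) and 3 at −1 or below (9.92%), with a member median of −0.44 against −0.03. Of the 5 members with a mean of 20, 0 and 1 did, and the median of these 5 was −0.37. Fgfr4 (−2.45) and Fgfr3 (−1.77) were cases of 1 high 2i cell. Ptpn11 had a ratio of −1.33, with pooled counts of 806 against 2471 and a range of −2.55 to −1.11 over the alternatives, and it was counted in 42.9% of N2B27 and 77.3% of 2i cells. Fgf4 (−0.51), Fgfr1 (−0.37) and Fgf17 (−0.90) were lower in N2B27 and Grb2 (0.31), Fgfr2 (0.91) and Frs2 (0.95) higher, all by less than 1. The comparisons share groups, so their values are given side by side and are not independent.

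**Figure D5:**
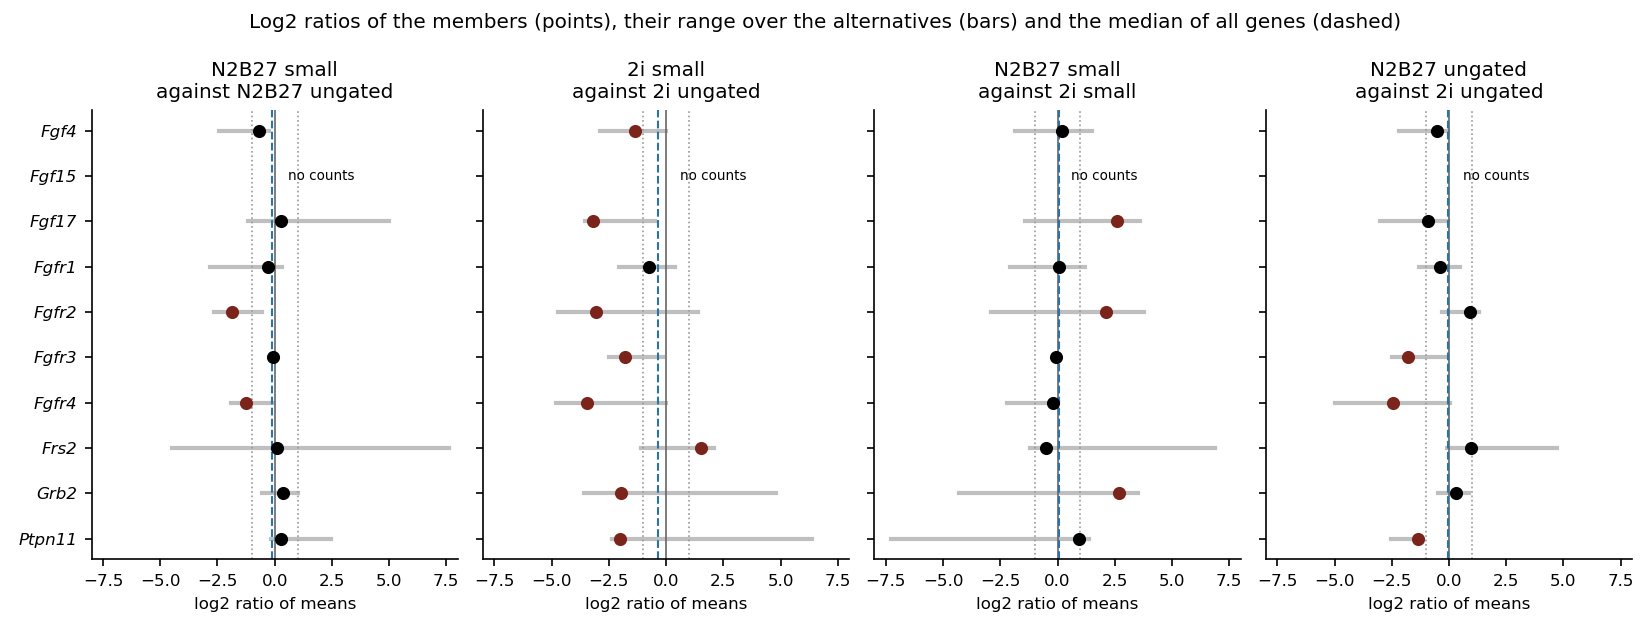
Points are log2 ratios of group means (pseudocount 1) for each member in the 4 comparisons, red where the size is 1 or more, grey bars span the values under the 15 alternatives, the dashed line is the median of all genes and the dotted lines mark −1 and 1. In 2i small against 2i ungated 7 points lie left of −1, and in the other 3 panels 2, 0 and 3 do.

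Downstream of the members, many genes known as targets or feedback regulators of ERK had higher means in N2B27 than in 2i. Of 18 on the list, 14 lay at 1 or above in small cells and 0 at −1 or below (22.3% and 19.2% of all genes), with a median of 2.21. In ungated cells 9 and 1 did (7.49% and 9.92% of all genes), with a median of 1.04. Of the 12 with a mean of 20, 10 and 6 lay at 1 or above in small and ungated cells and 0 at −1 or below in either. With spike-in size factors the median in small cells was −0.02, against −1.57 for all genes. Etv4, an ETS factor switched on by FGF, had a count in 15 of 20 N2B27 small and 19 of 21 N2B27 ungated cells, against 2 of 12 and 2 of 22 in 2i, with means of 116 and 217 normalized counts against 6.30 and 10.8. Egr1, an immediate-early gene, was counted in 17 of 20 and 20 of 21 N2B27 cells and in 1 of 12 and 0 of 22 2i cells. The medians of all 10 members in the same comparisons were 0.13 and −0.44, and those of the 5 with a mean of 20 were 0.95 and −0.37. Earlier results of these data on ERK targets were known when the list was drawn up, so its direction is not independent evidence.

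The relay from the receptor to ERK and the cell surface partners showed mixed values. Of 22 relay genes, 6 lay at 1 or above and 2 at −1 or below in small cells (N2B27 against 2i, 22.3% and 19.2% of all genes), and 4 and 1 did in ungated cells (7.49% and 9.92%). Of the 16 with a mean of 20, 4 and 1 did in small and 2 and 0 in ungated cells. Plcg1, which encodes a phospholipase that binds activated FGF receptors, was higher in N2B27 in both (5.65 in small and 1.16 in ungated cells) and had means of 1.43, 13.1, 121 and 30.7 normalized counts. Shc1, an adaptor that also recruits GRB2, had its lowest mean in 2i small cells, as Grb2 did, with 72.2 against 258 in 2i ungated, 232 in N2B27 small and 337 in N2B27 ungated cells. In small against ungated cells 3 relay genes lay at 1 or above and 6 at −1 or below in 2i (16.3% and 27.8% of all genes), and 5 and 3 did in N2B27 (11.8% and 17.1%). They included Mapk3, which encodes ERK1 (−2.36 in 2i), and Araf, which encodes a RAF kinase (−1.69 in N2B27).

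Of 24 co-receptor and heparan sulphate genes, 7 lay at 1 or above and 5 at −1 or below in small cells (N2B27 against 2i), where 22.3% and 19.2% of all genes did. In ungated cells 2 and 6 did, against 7.49% and 9.92%. Of the 9 with a mean of 20, 4 and 2 did in small and 1 and 3 in ungated cells. Sulf1, which trims sulphate from heparan chains and so weakens FGF binding, was lower in N2B27 in both (−2.07 and −2.21), counted in 8 of 12 and 18 of 22 2i cells but 5 of 20 and 6 of 21 N2B27 cells. Gpc4, a glypican that carries heparan sulphate, had opposite values (−2.21 in small and 1.23 in ungated cells) and was 1 of the 5 genes of this list at −1 or below in N2B27 small against ungated cells (−4.10). In 2i small against ungated cells 3 lay at 1 or above and 10 at −1 or below (16.3% and 27.8% of all genes), among them Sulf2 (−3.51) and Ext1 (−2.94), a heparan chain polymerase.

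Members varied from cell to cell largely without one another. Over the 36 pairs of counted members, Pearson's r of log2(normalized count + 1), centred within each group over 75 cells, ran from −0.22 to 0.35 with a median of −0.05, and the highest was that of Fgf4 and Fgf17. Genes closest to Fgf4 among 6646 common genes were Stmn2, which encodes a tubulin-binding protein (0.57), Tmsb4x, an actin-sequestering thymosin (0.56), and G3bp2, a stress granule protein (0.54), and within single groups the r of Stmn2 ran from 0.35 to 0.83. Closest to Fgfr1 were Incenp, a subunit of the chromosomal passenger complex (0.59), Gm14026 (0.54) and the lysosomal protease Ctsb (0.53), and closest to Grb2 were Gm16437 (0.56), Ubxn2a (0.48) and Cfdp1 (0.46). These are descriptions over cells that share libraries, depth and cell cycle differences. Ubxn2a and Grb2 had r of 0.74 within N2B27 small and 0.00023 within N2B27 ungated cells, so the likeness was not general.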

How the data were processed

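Single-cell RNA sequencing was analysed from the deposited counts, which are whole-number reads per Ensembl gene and cell. The authors trimmed reads with Trim Galore (version 0.4.4), aligned them to mm10 with GSNAP (version 2015-09-29) and counted them with HTSeq. Genes took 72.4% of the deposited counts and spike-ins 3.85%, and rows that name no gene (6.77% ambiguous, 11.1% not aligned) were left out of totals. Cells were mapped to samples through the run list. Cells beyond 3 median absolute deviations per plate in total counts, genes or mitochondrial share were left out (scater 1.30.1 in R 4.3.3), and counts were divided by DESeq2 1.42.0 size factors over the 1227 genes counted in every kept cell. Cell cycle classes came from cyclone in scran 1.30.0. Group means gave log2 ratios with a pseudocount of 1, and a gene was called at a size of 1 or more among genes with a mean of at least 20. The study's test over cells was not repeated, because each group is 1 sample. Exact Poisson intervals (95%) of counts and exact intervals of their ratios cover counting error only. Clopper-Pearson intervals (95%) of shares treat cells as independent draws within 1 sample. None of them covers differences between samples. The script was tested on simulated data.

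Members and gene lists were chosen with earlier results of these data known. Genes outside the members were named by rule: up to 2 per list, direction and comparison with the largest ratio past 1, at a mean of at least 20 and a count in 50% of the cells of the higher group; all genes within 200 kb of Fgf4; and the 3 genes most alike to the highest ligand, receptor and adaptor. Other FGF family genes were named after their values were seen. Positions and exon lengths are from GENCODE M21 (GRCm38), whereas the authors' annotation release may draw some genes differently.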

Additional observations from a re-analysis of the deposited data

Results flagged for a closer look

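Of the 10 genes, 3 had opposite log2 ratios of N2B27 against 2i in small and in ungated cells, each of a size of at least 0.5, a limit set after the values were seen. Fgf17 had 2.59 in small and −0.90 in ungated cells, on 2 to 5 cells with at least 10 counts per group, and with spike-in size factors the small-cell value was −1.41. Ptpn11 had 0.95 in small and −1.33 in ungated cells, and without any cell filter the small-cell value was −7.27. Frs2 had −0.51 in small and 0.95 in ungated cells, and 1 cell held 94.9% and 99.1% of its counts in the small cells of 2i and N2B27. With no cell filter its small-cell value was 6.89, of the same sign as in ungated cells. The difference between small and ungated cells was not tested for any of them, since each group is 1 sample. No group of 4 to 10 samples existed in which a single sample could be set against the others.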

How the results depend on the processing

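Over the 15 alternatives the member median ran from −2.03 to −0.24 in 2i small against 2i ungated, from −1.04 to 0.17 in N2B27 small against N2B27 ungated, from −1.30 to 0.68 in N2B27 small against 2i small and from −0.54 to −0.02 in ungated cells. It moved by more than 1.5-fold in 2i small against 2i ungated with no cell filter (−0.78), spike-in size factors (−0.24), the mean of log2 values (−1.0) and S phase cells only (−0.70), and, with spike-in size factors, in N2B27 small against N2B27 ungated (−1.04) and in N2B27 small against 2i small (−1.30, all genes −1.57). That scale moved the median of all genes from −0.36 to 0.79 in 2i small against 2i ungated, and from −0.12 to −0.82 in N2B27 small against N2B27 ungated. In 2i small against 2i ungated the split of all genes at 1 or above and at −1 or below went from 16.3% and 27.8% to 39.3% and 3.87% with spike-in and to 33.5% and 18.1% with poscounts size factors, and in N2B27 small against 2i small from 22.3% and 19.2% to 1.55% and 73.6% with spike-in size factors. Poscounts size factors moved the median of all genes to between 0.26 and 0.41 in the 4 comparisons. Relative to all genes the member median in 2i small against 2i ungated was −1.52, and from −1.66 to −0.38 under the alternatives other than the mean of log2 values, where it was 0.36.

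Of the 36 ratios of counted members, 16 had a size of 1 or more, of which 7 kept their sign under all 15 alternatives and 1, that of Ptpn11 in ungated cells, stayed at 1 or more in its own direction. For 2i small against 2i ungated, signs turned for Grb2 (4.82) and Ptpn11 (6.37) with no cell filter, for Fgfr2 (1.41) with spike-in size factors and for Frs2 (−1.12) without the highest cell of each gene, and the ERK target median turned to 0.58 with spike-in size factors. For N2B27 small against 2i small they turned for Grb2 with no filter (−4.29) and, with spike-in size factors, for Fgf17 (−1.41), Fgfr2 (−2.91), Grb2 (−0.15) and the ERK target median (−0.025). In ungated cells Fgfr4 turned (0.061) without its highest cell. Leaving the highest cell out of 1 group at a time, chosen after seeing the data, turned Fgfr4 (0.21) and Frs2 (−1.80) in 2i small against 2i ungated and Fgfr4 (1.24) in ungated cells. The causes were not tested. Thinning every cell to 1300000 counts moved 1 of 40 detection shares out of its interval, no cell filter 0, and a minimum of 10 counts 8. A minimum mean of 5 raised the share of all genes at 1 or above in N2B27 ungated against 2i ungated from 7.49% to 11.5%. Other normalizations were rescaled to the mean total of the main one. No paired analysis was possible because each group is 1 sample without replicate numbers.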
